A study of Mus musculus with 8 samples.

Results

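Dividing macrophages and monocytes of the neonatal mouse lung were examined as the cells that held at least 10 UMIs of Lyz2, at least 1 UMI of Ptprc, fewer than 10 UMIs of Dppa5a and at least 3 UMIs of Mki67 and Top2a together. A UMI (unique molecular identifier) stands for 1 captured transcript molecule. The rule found 170 of the 11806 cells of the deposited count table, or 1.44%. These 170 cells are called dividing by this rule alone. In 40 of them neither replication nor mitotic genes lay above the 95th percentile of the comparison cells, as given below. The 170 cells were set against 4880 comparison cells with the same minimum of Lyz2 and Ptprc and with Mki67 and Top2a both at 0. The counts of the 5 rule genes chose the cells, so the levels of these genes, and of every gene that follows the cell cycle, are given as a description. No p-value is given anywhere.

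Lyz2 codes for lysozyme and is abundant in macrophages, monocytes and neutrophils, and Ptprc codes for the leukocyte surface protein CD45. Mki67 (the Ki-67 protein, which coats mitotic chromosomes) and Top2a (DNA topoisomerase II alpha, which untangles replicated DNA) are transcribed mainly from S phase to mitosis. Tissue macrophages can renew themselves by local division, and the alveolar macrophages of the airspaces arise from fetal monocytes around birth and expand in the days that follow. Monocytes come mostly from dividing precursors in bone marrow and fetal liver. Dppa5a marks pluripotent cells and was used to keep such cells out.

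The study compared lungs of C57BL6/J pups, labelled WT, with 4 libraries from pups in air (21% O2, labelled healthy) and 4 from pups in hyperoxia (65% O2 from birth, a model of the lung disease of preterm infants). Mothers of both groups had received lipopolysaccharide (LPS), which provokes an innate immune response, on day 14 of gestation, so the air group was not a group without LPS. The pups were 5 days old, their lungs were cryopreserved before use, and immune, epithelial and endothelial cells were collected on a flow sorter, whose gates set the mixture of cells in the table. No label tied a cell to a library. Hyperoxia was therefore not compared with air, and all libraries entered as 1 sample.

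The order of the barcodes broke the table into 8 runs, which are given singly or as a range and are not known replicates of a group. The 8 runs held 282 to 3355 cells each, and 12 barcodes occurred in more than 1 run, with 0 of them among the dividing cells. Dividing cells had a median of 12388 UMIs and 3645 genes, against 5411 UMIs and 2054.5 genes in the comparison cells, so a gene was easier to detect in a dividing cell. Runs 6 and 8 stood apart. Gm42418, a predicted gene that takes up ribosomal RNA reads, made up a median of 4.28% and 3.76% of the UMIs of their dividing cells, against 0.104% to 0.838% in the other 6 runs. Run 6 held 42 of the 170 cells, and the values on identity, gene lists and cell cycle levels that it moved most are given without it as well.

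Of the 5578 cells with enough Lyz2 and Ptprc and little Dppa5a, 3.05% were dividing by this rule. The share per run was lowest in run 4, at 0.566% (4 of 707 cells, exact 95% interval 0.154% to 1.44%), and highest in run 6, at 5.84% (42 of 719, 4.24% to 7.81%). Runs 1, 2, 3, 5, 7 and 8 lay between them at 3.13%, 5.26%, 3.26%, 3.36%, 1.97% and 4.86%. The intervals of runs 4 and 6 do not meet, while those of runs 1, 2, 3, 5 and 8 overlap each other. These intervals, and all others here, cover counting error only. The runs also differed in depth. Runs 4 and 7, with the lowest shares, were the shallowest, with a median of 3650 and 4434 UMIs in the eligible cells. The median was 5543 in run 6, 8008 in run 8, 14238 in run 2 and 14960 in run 1. After each cell was thinned to 3000 UMIs, the share with any Mki67 or Top2a was still lowest in run 4, at 2.94%, and highest in run 6, at 12.8%. The order between them changed: run 7, at 6.86%, stood above runs 1 and 3, at 5.29% and 5.98%.

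The threshold of 3 UMIs cuts through a gradient. Just outside it, the 92 cells with 2 UMIs of Mki67 and Top2a had 9480 CPM over all cell cycle lists, and 18.5% of them held Pclaf. CPM are UMIs per 1000000 UMIs of the summed cells. Just inside it, the 41 cells with 3 UMIs had 13066 CPM, and 39.0% held Pclaf. The 59 cells with 10 or more UMIs had 39152 CPM, and 88.1% held Pclaf, against 8069 CPM and 1.95% in cells at 0.

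**Figure D1:**
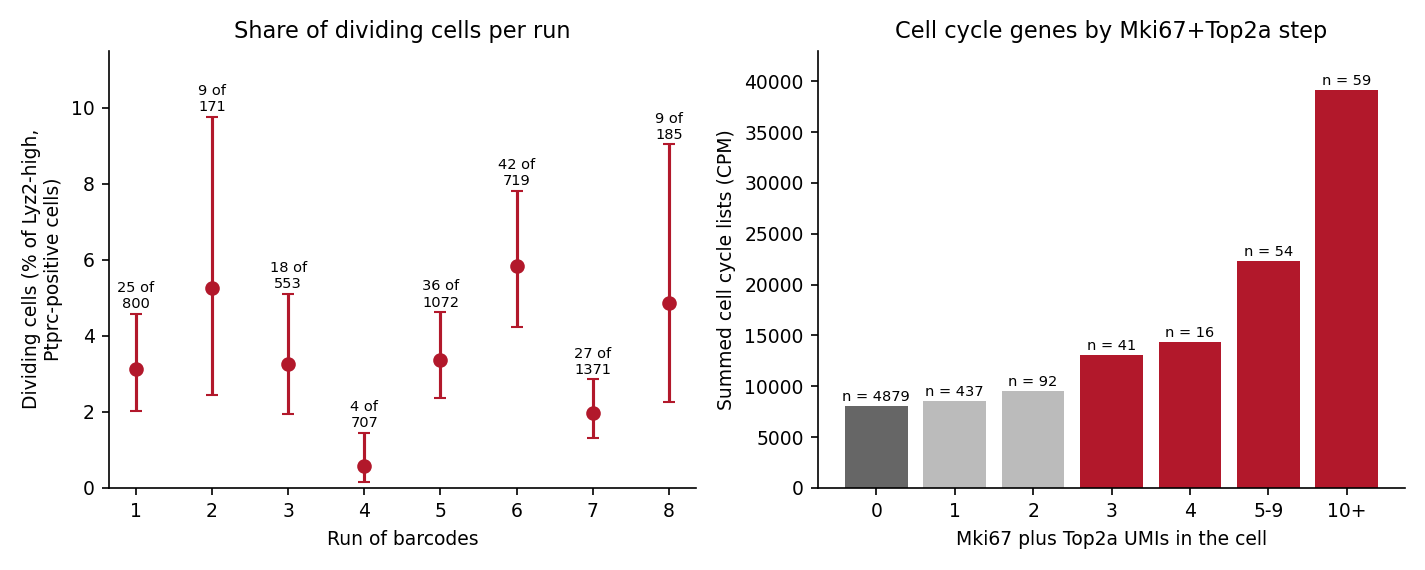
Left, the percentage of Lyz2-high, Ptprc-positive cells that were dividing in each of the 8 runs of barcodes, with exact 95% binomial intervals and the cell numbers above each point. Right, summed CPM of the cell cycle lists in cells grouped by their UMIs of Mki67 plus Top2a (dark grey, comparison cells; light grey, cells between the thresholds; red, dividing cells), which runs from 8069 CPM at 0 to 39152 CPM at 10 or more.

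The rule genes were not found together in every dividing cell. Mki67 was found in 166 of the 170 cells and Top2a in 129. Both were found in 125 cells, Mki67 alone in 41 and Top2a alone in 4. Of the 41 cells with Mki67 alone, 18 came from run 6 and 5 from run 8. Mki67 lies on chromosome 7 (135689784 to 135716361, minus strand) and Top2a on chromosome 11 (98992943 to 99024189, minus strand) of the mouse build GRCm38.

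Pclaf and Stmn1 are 2 genes of dividing cells that the rule did not read. Both follow the cell cycle, so higher levels follow from the rule and are a description, not a check of the label. Pclaf codes for a factor that binds PCNA at the replication fork. Its level in the dividing cells was 57.3 CPM in the lowest run, 324 in the median run and 586 in the highest, against 0 to 4.67 CPM in the comparison cells of the same runs. The ranges do not overlap, and the pooled level was 285 CPM against 3.17, 89.8-fold (95% interval 73.6 to 110). Stmn1 codes for stathmin, which destabilises microtubules. It stood at 124 CPM in the lowest run, 673 in the median run and 1454 in the highest, against 18.7 to 36.1 CPM in the comparison cells, again with no overlap. Pclaf was seen in 109 of the 170 cells (64.1%) and Stmn1 in 133 (78.2%), and 34 cells held neither, 19 of them in run 6.

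Across the 6739 genes with at least 20 CPM in either set, 429 (6.37%) were at least 2-fold higher in the dividing cells and 175 (2.60%) at least 2-fold lower. A gene is called higher or lower below only where it passed that size. The median gene stood 0.15 higher on the log2 scale. Scaling by the median of ratios in place of the total moved all log2 differences down by 0.18, and gave 306 higher and 250 lower genes, so the higher genes went from 71.0% of the calls to 55.0%. The members of the cell cycle lists follow the rule, and their counts are set beside these percentages without reading more from them.

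DNA replication genes were higher in 34 of the 36 tested members, and 0 were lower. The list summed to 2441 CPM in the dividing cells and 536 in the comparison cells, 4.55-fold (4.42 to 4.69). By run it was 911 CPM at the lowest, 3024 at the median and 4782 at the highest, all above the comparison range of 438 to 638. Clspn (claspin, a checkpoint mediator at stalled forks) was at 55.1 against 0.947 CPM, 58.2-fold (39.8 to 87.5). Uhrf1, which guides DNA methylation to new strands, was at 62.4 against 1.62 CPM. Pcna, the sliding clamp of the replication fork, is also used in repair, and it was at 255 against 83.1 CPM, 3.07-fold (2.81 to 3.34).

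All 13 tested genes of DNA repair and checkpoint control were higher, with a sum of 764 against 156 CPM. Brca1, which acts in the repair of broken DNA, was at 32.2 against 0.641 CPM.

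Nucleotide synthesis genes differed widely in their folds. Of 16 tested, 10 were higher and 0 lower, yet the whole list rose only from 1314 to 1727 CPM, 1.31-fold (1.27 to 1.36). Rrm2, the S phase subunit of ribonucleotide reductase, was at 90.6 against 1.39 CPM, 65.0-fold (47.7 to 90.2). Tk1 (thymidine kinase) and Tyms (thymidylate synthase) were 26.8-fold and 11.1-fold higher. The most abundant members, Nme1 and Nme2, which pass phosphate between nucleotides in all cells, were at 189 against 199 CPM and 662 against 831 CPM.

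Genes of mitosis were higher in nearly all tested members. Kinetochore and centromere genes, which tie chromosomes to the spindle, were higher in 19 of 20 tested members and summed to 1084 against 96.5 CPM, 11.2-fold (10.7 to 11.8). Cenpf was at 76.1 against 1.36 CPM and Cenpa, the histone variant of the centromere, at 155 against 13.6 CPM. Mitotic kinases and cyclins were higher in 27 of 29 tested members, with 2149 against 376 CPM. Among them Ccna2 (cyclin A2) was at 75.3 against 0.780 CPM, Birc5 (survivin) at 206 against 4.07 CPM, and Ube2c, which helps destroy mitotic cyclins, at 151 against 10.4 CPM. Spindle and cytokinesis genes were higher in 30 of 33 tested members, with 4390 against 842 CPM, and their most abundant members were the tubulin gene Tubb5 at 1064 against 261 CPM and Tuba1b at 683 against 181 CPM.

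Many promoters of such genes hold a cell cycle homology region (CHR) and CCAAT boxes, and the promoters of both rule genes and of Ube2c are shown here with that of Pclaf for contrast. Each sequence gives the 200 bases before the RefSeq transcript start on build GRCm38.p6, 5′ to 3′ on the gene's own strand. Capitals mark the CHR (TTTGAA or TTCGAA) and the CCAAT box, on both strands, so that TTCAAA and ATTGG are marked too. In the Ube2c promoter a CCAAT and an ATTGG overlap.
Top2a, chr11:99024190-99024389, minus strand: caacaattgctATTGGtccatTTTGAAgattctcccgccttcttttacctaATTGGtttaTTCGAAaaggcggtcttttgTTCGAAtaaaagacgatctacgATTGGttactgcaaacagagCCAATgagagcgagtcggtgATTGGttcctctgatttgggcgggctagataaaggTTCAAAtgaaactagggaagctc
Mki67, chr7:135716380-135716579, minus strand: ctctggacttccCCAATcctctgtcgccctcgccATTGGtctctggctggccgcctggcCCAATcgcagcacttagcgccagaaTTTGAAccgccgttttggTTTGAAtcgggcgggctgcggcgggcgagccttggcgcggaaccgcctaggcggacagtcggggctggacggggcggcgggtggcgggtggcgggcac
Ube2c, chr2:164769729-164769928, plus strand: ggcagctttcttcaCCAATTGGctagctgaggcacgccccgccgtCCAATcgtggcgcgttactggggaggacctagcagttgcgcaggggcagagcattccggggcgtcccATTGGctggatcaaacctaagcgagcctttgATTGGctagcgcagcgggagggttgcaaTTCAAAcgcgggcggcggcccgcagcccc
Pclaf, chr9:65890123-65890322, plus strand: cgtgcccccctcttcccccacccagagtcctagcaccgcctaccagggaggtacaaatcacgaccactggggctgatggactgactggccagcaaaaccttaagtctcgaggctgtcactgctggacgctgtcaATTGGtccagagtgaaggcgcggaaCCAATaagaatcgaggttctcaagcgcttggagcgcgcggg

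The Top2a promoter holds 4 CHR letters and 5 CCAAT letters, that of Mki67 holds 2 and 3, that of Ube2c 1 and 5, and that of Pclaf 0 and 2. Over windows from 250 bases before to 50 after the start, the CHR letters occurred in 70.4% of 71 promoters of the higher mitotic, kinetochore and spindle genes. They occurred in 14.0% of the promoters of all tested genes and in 19.2% of all 32851 promoters. For the higher replication, nucleotide and repair genes the share was 16.7% of 54 promoters. Letters of the E2F type (GCGGGAAA, GCGCGAAA, GGCGGGAA or GGCGCGAA, both strands, which can overlap each other) occurred in 44.4% of the replication, nucleotide and repair promoters, 4.23% of the mitotic ones, 6.49% of those of all tested genes and 3.39% of all promoters. RefSeq entries were matched for 65 of 76 and 46 of 57 genes of these sets. A match is a description of the letters in the window.

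Chromatin genes were the most abundant of the cell cycle lists, with 12306 against 4749 CPM, 2.59-fold (2.56 to 2.62), and 30 of 39 tested members were higher. Hist1h1b, a linker histone made in S phase, was at 132 against 1.75 CPM, and Hist1h2ap at 340 against 9.75 CPM. Histone genes share long stretches of sequence, so reads may be split between copies. Hmgb2, a DNA-bending protein, was at 1691 against 423 CPM, and Ncapg, a condensin subunit that compacts mitotic chromosomes, at 31.0 against 0.251 CPM.

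Genes that start the cycle were less uniform. Of 14 tested, 7 were higher and 0 lower. Ccne2 (cyclin E2, which acts at the start of S phase) was at 41.1 against 1.64 CPM and Foxm1, a regulator of mitotic genes, at 29.0 against 0.696 CPM. The D-type cyclins did not pass the size: Ccnd2 was at 156 against 81.9 CPM and Ccnd3 at 101 against 153 CPM. Of 14 tested genes that restrain the cycle, Rbl1 and Cdkn2c were higher and Klf2 was lower. Rbl1 (p107) was at 66.4 against 17.7 CPM and Cdkn2c, an inhibitor of the D-type cyclin kinases, at 20.1 against 1.42 CPM. Klf2, a factor of quiescent cells, was at 165 against 346 CPM. Cdkn1a, the p53-induced inhibitor p21, was at 231 against 242 CPM, and Btg1, which slows growth, at 813 against 1333 CPM.

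Growth-related lists were called in no or few members. Among ribosome biogenesis and translation genes 0 of 19 tested were higher, and the sum was 3434 against 3022 CPM, with the nucleolar genes Npm1 and Ncl 1.42-fold and 1.47-fold above the comparison. Among glycolysis genes 0 of 14 were called, and Gapdh stood at 976 CPM in both sets. Of 15 tested macrophage growth factors and receptors, 0 were higher and Csf3r, the receptor of the granulocyte growth factor, was lower. Csf1r, the receptor of the main macrophage growth factor, was at 182 against 326 CPM, and Csf2rb, the shared chain of the GM-CSF receptor, at 226 against 199 CPM. Of 23 tested myeloid transcription factors, Atf3, Maf and Nr4a1 were lower and 0 were higher. Nr4a1, needed by nonclassical monocytes, was at 174 against 416 CPM, and Spi1 (PU.1), the master regulator of the myeloid line, at 355 against 511 CPM.

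**Figure D2:**
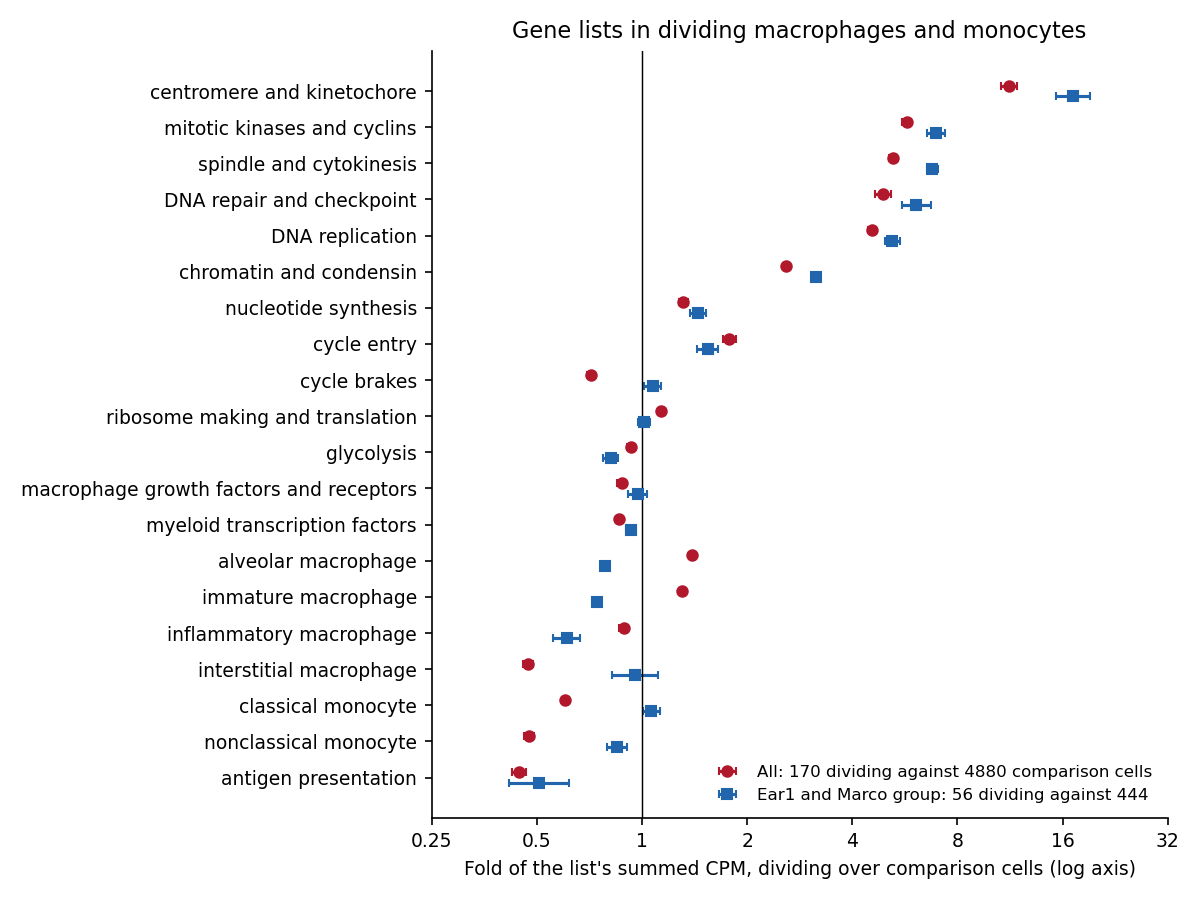
Fold of the summed CPM of each gene list in dividing over comparison cells on a log axis, with exact 95% intervals for counting error. Red circles show all 170 dividing cells and blue squares the 56 dividing cells whose leading identity genes were Ear1 and Marco: cell cycle lists lie right of 1 in both, and the alveolar macrophage list lies right of 1 in red (1.39-fold) and left of 1 in blue (0.784-fold).

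The 5 myeloid identity genes were held unequally. Ear1 and Marco mark alveolar macrophages. C1qa (a complement chain) marks interstitial macrophages, Ly6c2 classical monocytes, and Adamdec1 codes for a protease secreted by some tissue macrophages. At least 1 UMI of Ear1 was found in 74 of 170 dividing cells (43.5%, exact 95% interval 36.0% to 51.3%), against 12.7% of comparison cells. Marco was found in 44 (25.9%, 19.5% to 33.1%), against 7.09%. Ly6c2 was found in 42 (24.7%, 18.4% to 31.9%), against 29.9%. Adamdec1 was found in 10 (5.88%, 2.86% to 10.6%), against 11.8%, and C1qa in 7 (4.12%, 1.67% to 8.30%), against 5.66%. At least 1 of the 5 was present in 136 dividing cells (80.0%).

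Background from free RNA was read in 1068 lymphocytes with few Lyz2 UMIs and a median depth of 4924 UMIs. There Ear1 and C1qa were each seen in 0.281% of cells. Marco and Adamdec1 were seen in 0 of 1068 cells, which allows a share of up to 0.281%. Ly6c2 was seen in 19.8%, and lymphocytes make this transcript themselves, so that share is no measure of free RNA. Ear1 has near-identical copies in its gene family, and its reads may be split with them.

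Equal depth left the 2 alveolar genes above the comparison cells. The other 3 had lower shares, though the C1qa interval held the comparison share. The Ly6c2 interval met that of the comparison cells, 22.1% to 24.7%. After thinning to 3000 UMIs, which left 165 dividing and 3989 comparison cells, Ear1 was in 26.1% against 11.1% and Marco in 15.8% against 5.74%. Ly6c2 was in 16.4% (11.1% to 22.9%) against 23.4%, Adamdec1 in 1.82% (0.377% to 5.22%) against 9.53%, and C1qa in 3.03% (0.991% to 6.93%) against 5.36%. Run 6 carried much of the C1qa and Ly6c2 in the dividing cells. It held 5 of the 7 cells with C1qa and 22 of the 42 with Ly6c2, and only 3 of the 74 with Ear1. Without run 6, Ear1 was in 55.5% of 128 dividing cells, Marco in 32.8%, Ly6c2 in 15.6%, Adamdec1 in 6.25% and C1qa in 1.56%.

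**Figure D3:**
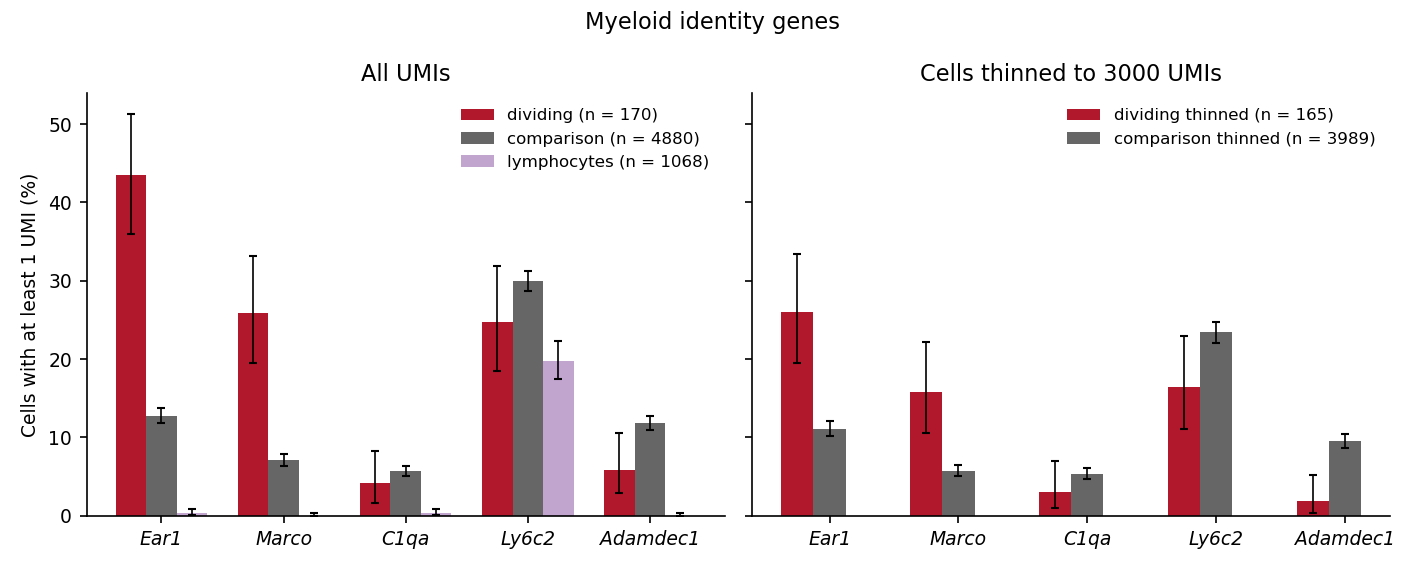
Percentage of cells with at least 1 UMI of each identity gene, with exact 95% binomial intervals, for all UMIs (left) and after thinning each cell to 3000 UMIs (right). Ear1 and Marco are above the comparison cells on both sides, and Adamdec1 is below them on both sides.

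The alveolar genes occurred together and apart from the monocyte gene, in dividing and comparison cells alike. Of the 44 dividing cells with Marco, 33 also held Ear1 (75.0%), against 245 of 346 comparison cells with Marco (70.8%). No dividing cell held Ly6c2 together with Ear1 or with Marco: the overlap was 0 of 42 Ly6c2 cells in each case. An approximate limit, 3 over the number of cells, allows up to 7.14%. In the comparison cells 11 of 1460 Ly6c2 cells held Ear1 (0.753%) and 7 held Marco (0.479%). An overlap of 0 of 42 cannot be told apart from these shares.

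Eligible cells were then grouped by the identity gene with the most UMIs, at least 3, with Ear1 and Marco added together. Among the dividing cells 56 fell to Ear1 and Marco, 24 to Ly6c2, 5 to C1qa, 4 to Adamdec1 and 81 to none. The dividing share of the eligible cells was 9.84% in the Ear1 and Marco group (56 of 569, 7.52% to 12.6%). It was 2.59% in the Ly6c2 group (24 of 926, 1.67% to 3.83%), 2.34% in the C1qa group (5 of 214, 0.763% to 5.37%), 1.59% in the Adamdec1 group (4 of 251, 0.436% to 4.03%) and 2.24% among cells of no group (81 of 3618, 1.78% to 2.78%). The interval of the Ear1 and Marco group lies above the other 4, which overlap each other. Without run 6, which held 3 of the 5 dividing cells of the C1qa group, the share of that group was 1.32% (2 of 151), and it was 9.91% for Ear1 and Marco, 1.98% for Ly6c2, 1.68% for Adamdec1 and 1.64% for cells of no group. Cells of the Ear1 and Marco group were deeper, with a median of 9268 UMIs against 4786 to 8804 in the other groups. At 3000 UMIs a cell, 12.7% (10.1% to 15.8%) of the Ear1 and Marco group held any Mki67 or Top2a, against 3.48% to 6.45% in the other groups. A group is a range of UMI counts, and 13 of the 56 cells led with 4 or fewer UMIs.

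The same order held by run. In the 6 runs with at least 20 Ear1 and Marco cells, 4.88% of them were dividing in the lowest run, 9.01% at the median and 15.6% in the highest. All other eligible cells of the same runs gave 0.300%, 1.77% and 3.00%, and the Ear1 and Marco share was the higher in 6 of 6 runs. Run 5 alone gave 19 of the 56 dividing cells of that group, at 11.9% of its 160 Ear1 and Marco cells. Run 6 gave 1.

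Within the Ear1 and Marco group, 56 dividing cells were set against 444 with Mki67 and Top2a at 0. Over 6746 tested genes 8.42% were higher and 1.08% lower. Replication genes were higher in 41 of 41 tested members and kinetochore genes in 22 of 23, with 1601 against 93.4 CPM (17.1-fold, 15.3 to 19.2). Alveolar macrophage genes went the other way from the pooled comparison. In all cells 4 of 20 tested members were higher, Ctsk, Krt19, Atp6v0d2 and Chil3, and the list summed to 6963 against 5016 CPM. Within the group 0 of 24 were higher and 3 were lower, and the list summed to 12589 against 16049 CPM, 0.784-fold (0.768 to 0.801). The groups were set by Ear1 and Marco, which are in this list. The lower members were the fatty acid binding proteins Fabp1, Fabp4 and Fabp5, and Fabp5 was at 448 against 950 CPM.

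Other alveolar genes of the group did not pass the size. Ear1 was at 419 against 613 CPM, Marco at 336 against 423 CPM, Lpl (lipoprotein lipase) at 1774 against 2416 CPM, and Abcg1, which exports cholesterol, at 934 against 1028 CPM. Atp6v0d2, a subunit of the lysosomal proton pump, stood at 652 against 653 CPM. The cyclin gene Ccnd2 was at 344 against 370 CPM, and its kinase partner Cdk6 at 225 against 230 CPM. In the Ly6c2 group Ccnd2 was close to absent, with 1 UMI in all 24 dividing cells and 5.24 CPM in the comparison cells.

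The summed counts of the dividing cells of the Ly6c2 group (24 against 803 comparison cells) held both monocyte and neutrophil genes. Over 6343 tested genes 7.44% were higher and 3.44% lower. Classical monocyte genes were higher in 1 and lower in 2 of 17 tested, and summed to 8393 against 11678 CPM. Ly6c2 itself, which defined the group, was at 847 against 1022 CPM, and Fn1 (fibronectin) was at 1969 against 928 CPM. Replication genes were higher in 19 of 27 tested, with 1292 against 473 CPM, 2.73-fold (2.50 to 2.97), and kinetochore genes in 7 of 8, with 529 against 109 CPM. Of these 24 cells, 10 came from run 1 and 8 from run 6, and 14 held Pclaf. The neutrophil list was at 28051 against 33327 CPM and the granulocyte precursor list at 5844 against 3035 CPM, and the part of such cells in the group's values was not tested. A granule gene of neutrophil precursors, Camp, was at 2473 CPM in these dividing cells and 1021 in their comparison cells. Few cells carried these sums. The granulocyte precursor list was seen in 12 of the 24 cells, with a median of 0.5 UMIs a cell. Camp was seen in only 5 dividing cells of any group, with 57.7% of its UMIs in 1 cell.

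In the 81 dividing cells of no identity group, set against 3217 comparison cells, 8.40% of 6915 tested genes were higher and 3.93% lower. Nonclassical monocyte genes were lower in 13 of 16 tested members and neutrophil genes in 9 of 10. Alveolar macrophage genes were higher in 6 of 18, with 5924 against 4369 CPM. Genes of lymphocytes were higher as well: the T cell and innate lymphoid list in 5 of 5 tested members, at 266 against 47.0 CPM, and the natural killer list in 1 of 1, at 85.7 against 9.76 CPM. Their part in the other differences of this group was not tested. Run 6 held 30 of these 81 cells, and 43 of the 81 held Pclaf.

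The pooled comparison had many monocyte and antigen presentation genes among the lower calls. Nonclassical monocyte genes were lower in 11 of 15 tested members, with 1417 against 2975 CPM. Ace, the angiotensin-converting enzyme, was at 13.3 against 81.0 CPM, 6.09-fold lower (4.33 to 8.87), and Adgre4 at 55.5 against 236 CPM. Within the Ear1 and Marco group the same list had 0 of 8 lower, and within the Ly6c2 group 6 of 15, at 1292 against 2257 CPM. Classical monocyte genes were lower in 6 of 16, and Plac8 was at 401 against 1665 CPM, 4.15-fold lower (3.90 to 4.42). Interstitial macrophage genes were lower in 4 of 9, among them Apoe, the lipid carrier, at 969 against 2339 CPM, with 30.7% of its UMIs in 1 dividing cell, and Cx3cr1, the fractalkine receptor, at 76.1 against 228 CPM.

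Antigen presentation genes were lower in 5 of 6, with Cd74, the chaperone of MHC class II, at 327 against 798 CPM. Few cells carried that signal: H2-Ab1 was seen in 15 dividing cells, and 1 cell held 29.6% of its UMIs. Without run 6, over 6731 tested genes with 7.86% higher and 3.22% lower, the antigen presentation list was at 470 against 1585 CPM (0.296-fold) in place of 733 against 1650 CPM (0.444-fold), and the interstitial list at 0.303-fold in place of 0.472-fold.

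When the comparison cells were reweighted to the run and identity gene makeup of the dividing cells, 342 genes were higher and 93 lower, and 85 of the 175 lower genes stayed in the count. Fewer cells of a type and less RNA per cell cannot be told apart in such sums.

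Immediate early genes, which respond to dissociation and other stimuli within minutes, were lower in 2 of 13, Junb and Zfp36. Junb was at 600 against 1302 CPM and Fos at 1178 against 1741 CPM.

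Dividing cells varied widely in their cell cycle genes. The replication list in single cells ranged from 166 to 10175 CPM with a median of 1711, and the mitotic lists from 83.1 to 12057 CPM with a median of 3403. Both form a continuous range, in which limits were set at the 95th percentile of the comparison cells, 1273 CPM for replication and 1211 CPM for the mitotic lists. Above both limits lay 91 of the 170 cells, above the mitotic limit alone 35, above the replication limit alone 4, and below both 40 (23.5%). The comparison cells had 0.410% above both.

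Without run 6, 18 of 128 cells (14.1%) were below both. Of the 40 cells below both limits, 22 came from run 6, 39 had no Pclaf and 30 had no Top2a. In the Ear1 and Marco group 40 of 56 cells were above both and 2 below both. In the Ly6c2 group 4 of 24 were above both and 9 below both. Among the 81 cells of no group 43 were above both and 26 below both.

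**Figure D4:**
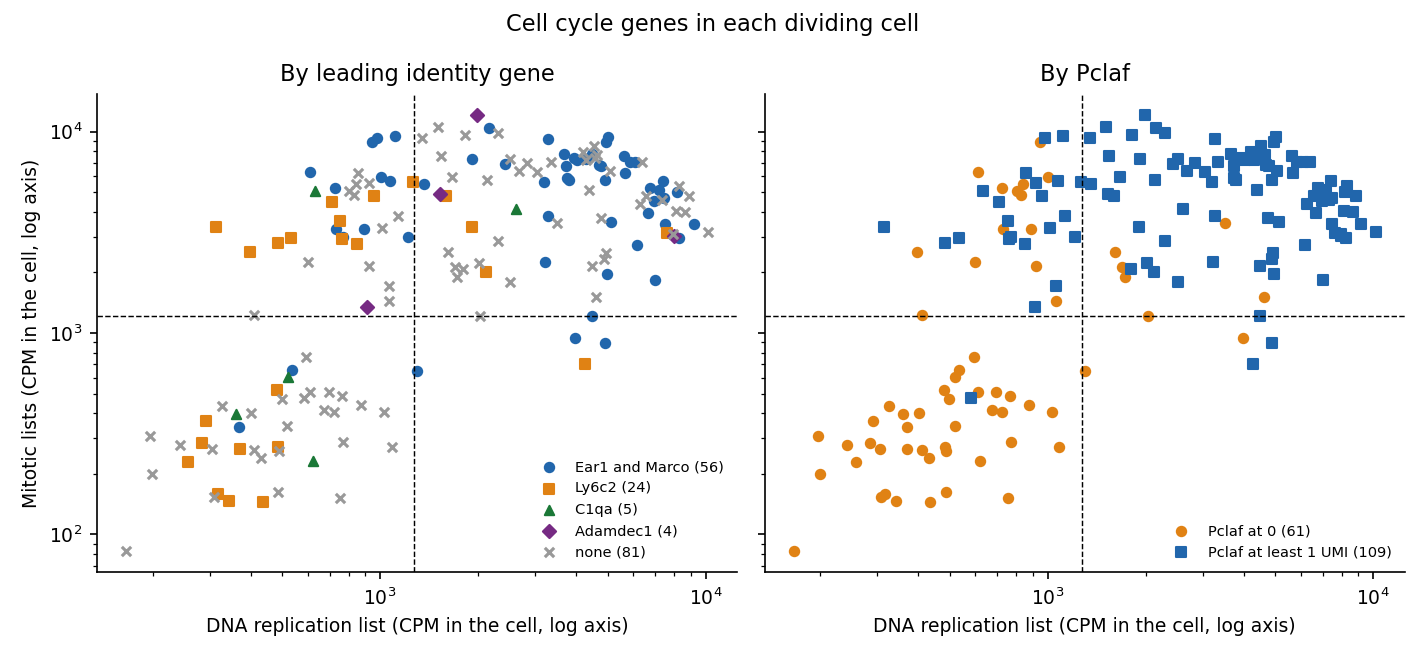
Each point is 1 of the 170 dividing cells, placed by its CPM of the DNA replication list and of the mitotic lists on log axes. Dashed lines are the 95th percentiles of the comparison cells, 1273 and 1211 CPM. Left, colour and symbol show the leading identity gene. Right, they show whether Pclaf, itself a gene of the cell cycle, was detected, and 39 of the 40 cells below both lines are without it.

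The 61 dividing cells without Pclaf were then set against the 109 with it, a split chosen after the values had been seen. Pclaf follows the cell cycle itself, so lower cell cycle genes without it follow from the split and are a description. Median depth over all runs was 14401 UMIs without Pclaf and 11905 with it. It was 26267 against 24132 UMIs in run 1, 15948 against 8497 in run 6 and 9108 against 9493.5 in run 5. The part of depth in the split was not tested. Over 7040 tested genes 6.39% were higher and 11.0% lower in the cells without Pclaf. Replication genes were lower in 41 of 41, at 677 against 3736 CPM, and mitotic kinases and cyclins in 31 of 32, at 661 against 3241 CPM. Mki67 itself was at 222 against 382 CPM. The comparison cells, with Mki67 and Top2a at 0, had 536 and 376 CPM of the replication and mitotic kinase lists. Of the 61 cells, 39 lay below both limits given above, and for these the name dividing rests on the rule alone. In run 6, 28 cells without Pclaf had 497 and 288 CPM, and in run 8, 6 such cells had 466 and 371 CPM. Runs 1 (9 cells) and 2 (5 cells) gave 549 and 717 CPM, and 548 and 797 CPM. Run 5 (6 cells) gave 2969 and 1713 CPM.

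Macrophage genes of inflammation were higher in the cells without Pclaf. In that list 11 of 14 tested members were higher and 1 lower, and it summed to 4272 against 842 CPM, 5.07-fold (4.76 to 5.41). The comparison cells, with Mki67 and Top2a at 0, had 2589 CPM of it. Arg1 (arginase) was at 319 against 9.07 CPM, with most of the Arg1 UMIs of all dividing cells in 1 cell. Inhba, which codes for a subunit of activin, was at 321 against 9.07 CPM. Saa3, an acute phase protein, was at 393 CPM against 0 of all UMIs of the 109 cells. Il1b was at 706 against 104 CPM and Cxcl2, a chemokine that draws neutrophils, at 945 against 110 CPM.

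Interstitial macrophage genes were higher in 9 of 10 tested, with Apoe at 1752 against 394 CPM. A large part of the Apoe UMIs of all dividing cells lay in a single cell, as given above. Alveolar macrophage genes were lower in 7 of 20, with Marco at 29.5 against 165 CPM and Ear1 at 76.1 against 188 CPM. That order did not hold by run: the alveolar list was at 6223 against 3570 CPM in run 1 and 12659 against 10563 in run 5, and at 2863 against 3515 CPM in run 6. Neutrophil precursor genes were lower in 4 of 4, at 12.4 against 2238 CPM. The higher sum rested on few cells. This list was seen in 27 cells with Pclaf and 11 without, and the median was 0 UMIs a cell on both sides. Camp had 0 UMIs in the cells without Pclaf. It was seen in 5 dividing cells, with 57.7% of its UMIs in 1 cell.

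The runs differ in how many such cells they hold. In the 4 runs whose eligible cells had a median Gm42418 share above 0.5% (runs 1, 2, 6 and 8), 37 of 85 dividing cells held Pclaf (43.5%), and 36 of the 41 cells with Mki67 alone were found. In the other 4 runs 72 of 85 held Pclaf (84.7%). Gm42418 was at 48082 CPM in the cells without Pclaf and 12378 in those with it, and its part in the result was not tested. Within run 6 the inflammatory list was at 3988 CPM in 28 cells without Pclaf and 677 in 14 with it. Within run 1 it was at 5408 CPM in 9 cells without and 1282 in 16 with it, and within run 5 at 2104 CPM in 6 without and 700 in 30 with it. The cells without Pclaf were the higher in each of these 3 runs, the runs with at least 5 cells on both sides. Arg1 and Inhba were both at 0 in run 5, with and without Pclaf, and above the cells with Pclaf in runs 1 and 6.

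Against all comparison cells, the 109 cells with Pclaf gave 9.78% of 6933 tested genes higher and 4.04% lower. In the full set of 170, Arg1, Inhba and Il1a were called higher, at 140 against 54.4 CPM, 141 against 45.2 CPM and 134 against 50.4 CPM, with most of the Arg1 UMIs in 1 cell. In the cells with Pclaf 0 of 13 inflammatory genes were higher and 9 were lower, and the direction of these 3 genes turned. Without run 6 Arg1 was at 0.882-fold. The alveolar list was higher in 9 of 20 tested members in the cells with Pclaf.

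**Figure D5:**
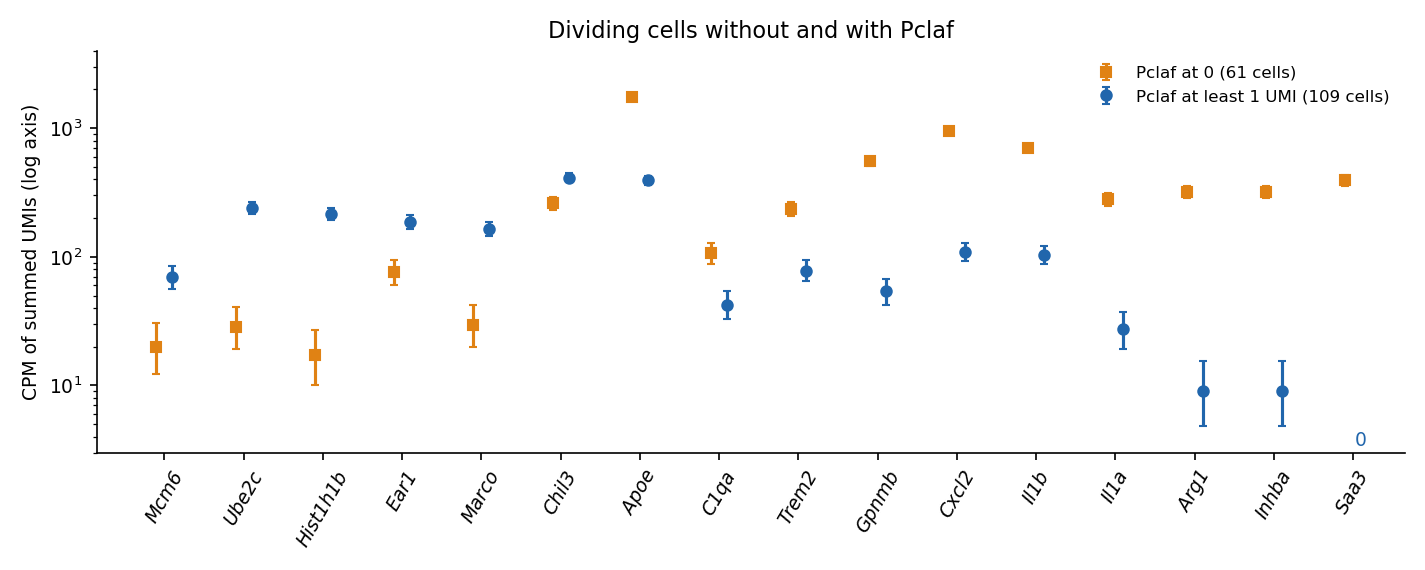
CPM on a log axis, with exact 95% Poisson intervals, in the 61 dividing cells without Pclaf (orange squares) and the 109 with it (blue circles), for genes of the cell cycle, of alveolar macrophages, of other macrophages and of inflammation from left to right. Cell cycle genes and Marco are lower in the cells without Pclaf, and Arg1, Inhba and Saa3 are higher, with Saa3 at 0 in the cells with Pclaf.

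Markers of other cell types were looked for in the dividing cells, and their part in the results above was not tested unless a value is given. In all, 32 of the 170 cells (18.8%) held at least 3 UMIs over Cd3d, Cd3e, Cd3g, Cd79a, Cd79b, Ncr1, Sftpc, Cldn5 and Col1a1, against 8.20% of comparison cells, and 25 of the 32 were in no identity group. At least 3 UMIs of T cell genes were held by 13 cells, 8 of them in run 6, and of natural killer cell genes by 4. The T cell and innate lymphoid list was at 124 CPM in the dividing and 38.5 CPM in the comparison cells, with a range of 0 to 903 against 3.43 to 70.1 CPM by run. The natural killer list was at 55.9 against 8.63 CPM, with Gzma (granzyme A) at 34.2 against 4.54 CPM in 6 cells. The Ear1 and Marco group had 1.32 and 2.64 CPM of these lists, and 1 of its 56 cells was among the 32. With the marked cells left out of both sets, 464 genes were higher and 192 lower.

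Neutrophil genes were at 6514 against 10782 CPM, and 5 dividing cells held more than 5% of their UMIs in S100a8 and S100a9. Granulocyte precursor genes were at 1296 against 814 CPM. Camp was seen in 5 cells, with 57.7% of its UMIs in 1 cell, and 4 cells held at least 10 UMIs of the granule genes Camp, Ngp and Ltf, from 334 to 1835 UMIs each. Epithelial genes were at 1409 against 1584 CPM, and 1 cell held 90.6% of all Sftpc UMIs of the dividing cells, 2527 of them. Lists of other types were low: B cells 17.7 against 28.9 CPM, dendritic cells 10.1 against 11.8, endothelium 27.8 against 45.4, fibroblasts and muscle 2.82 against 7.10, red cells 0.403 against 0.891, pluripotent-like cells 8.86 against 12.3, and mast cells and basophils 0 against 0.473 CPM. Of the defining markers, 6 of 6 mast cell and basophil genes, 5 of 6 red cell genes, 5 of 11 dendritic genes and 4 of 8 B cell genes were at 0 in the dividing cells.

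Outside all lists, the genes with the largest folds that went the same way in each of the 5 runs with at least 10 dividing cells were again mostly of division. Hist1h3c, a replication-dependent histone, was at 57.6 against 0.306 CPM, and Neil3, a DNA glycosylase of S phase, at 51.1 against 0.613 CPM. Diaph3, a formin that organises actin, was at 127 against 6.57 CPM, Cdkn3, a phosphatase of the cell cycle kinases, at 50.7 against 2.67 CPM, and Brip1, a helicase that partners Brca1, at 56.8 against 4.23 CPM. Lockd, a noncoding RNA, was at 51.1 against 2.90 CPM, Knstrn, a spindle protein, at 55.5 against 4.37 CPM, and Nsd2, a histone methyltransferase, at 122 against 31.6 CPM. Hist1h4d, Ccdc34, Syne2 and Gm42047 were 3.85-fold to 5.05-fold higher.

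On the lower side, Hes1, a target of Notch signalling, was at 9.26 against 76.9 CPM, 8.31-fold lower (5.53 to 13.1). Ifitm2, Ifitm3 and Ifitm6, which block viral entry at membranes, were 3.38-fold, 3.59-fold and 3.55-fold lower, and Ifitm3 went from 1213 to 338 CPM. Reads of these related genes may be split between copies. In the Ly6c2 group Ifitm3 was at 1191 against 2604 CPM. Serpinb2, an inhibitor of plasminogen activators, was 5.15-fold lower, at 10.9 against 55.9 CPM. Gm9733 and Pilrb2, whose reads may be shared with related genes, were 5.32-fold and 3.85-fold lower, and Plbd1, Dusp2, Abcg3, Pmaip1 and Hpgd were among the lower genes too. In the Ear1 and Marco group Hes1 was at 5.27 against 5.34 CPM.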

How the data were processed

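The deposited table holds raw UMI counts by gene and cell, which the authors had not normalized, for 32285 genes, 11806 cells and 77020720 UMIs. Per the labels' protocols, libraries were made with droplet 3' v3.1 chemistry, and the submitters' processing notes name Cell Ranger 1.3.1 and mm10. The handling of strand and introns is not given in the sources used here, so overlapping and antisense genes cannot be told apart. The lowest number of genes in a cell was 800.

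Column names gave barcodes with 7 suffixes, and 0 of 8 libraries had a label that matched them. Cells were assigned to no library and no oxygen group. Counts were summed over cells and given as CPM. Folds have exact conditional binomial, levels exact Poisson and shares exact Clopper-Pearson 95% intervals, all for counting error only. A gene was called at 2-fold with at least 20 CPM in either set, a step tested on simulated counts. Doublets were scored with Scrublet (scanpy 1.11.5): its threshold marked 58 cells (0.491%) and was taken as failed, and 193 cells were left out at 0.8% per 1000 cells as an alternative only. Gene positions are from GENCODE and promoters from RefSeq, both GRCm38.

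Members and gene lists were chosen with earlier results of these data known. Genes were named by rule: the rule and identity genes, up to 4 most abundant and 4 most changed called members of each list, the leading gene of each list of other cell types, and the 12 highest and 12 lowest folds outside the lists with at least 50 CPM and 1 direction in all runs of at least 10 dividing cells. Fabp1, Fabp4 and the genes of the Pclaf comparison that this rule did not give were chosen after their values were seen.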

Additional observations from a re-analysis of the deposited data

How the results depend on the processing

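The share of dividing cells was 3.05%, 2.63% to 3.41% when each run was left out in turn, 4.70% and 2.03% with at least 2 or 5 UMIs of Mki67 and Top2a, 1.95% with Pclaf required, and 6.88% as cells with any UMI after thinning. Of genes, 429 were higher and 175 lower. Leaving out each run gave 358 to 531 and 145 to 217, where the lowest came without run 7 and the highest higher count without run 1. Settings that changed a count by more than 1.5 times were at least 2 UMIs (253 and 58), at least 5 UMIs (645 higher), cells thinned to 3000 UMIs (736 and 274), Pclaf required (678 and 280), reweighted comparison cells (93 lower), no minimum CPM (2833 and 6529), at least 50 CPM (177 and 108), 1.5-fold (1040 and 431) and 3-fold (236 and 45). The last 4 change the calling rule itself, and for the others the cause was not tested. Of the alternative values of the 183 named genes, 2635 stayed within their main counting interval, 1135 moved and 6 reversed. Reversed log2 folds were those of Arg1 (-2.58 with Pclaf required, and -0.18 without run 6 in a range of -0.18 to 2.20 over the runs left out) and, with Pclaf required, of Inhba (-2.32), Il1a (-0.89), Gpnmb (-0.85) and Il7r (-0.29). Settings with Pclaf or at least 8000 UMIs were chosen after seeing the data. No paired analysis was possible because no column could be tied to a library or its replicate number, and the comparison of hyperoxia with air was not run for the same reason. At a median of 5411 UMIs a cell, genes near 1 UMI are missed in most comparison cells.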
